A study of Canis rufus and Canis latrans with 56 samples.

Results

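Polyamine control in whole blood was followed through 8 genes, taken from 16121 named genes on the arrays: AZIN1, OAZ1, OAZ2, ODC1, SAT1, AMD1, SRM and SMS. The members were chosen by name, as all probes that the platform annotation gives to these genes, and they came to 9 of 24354 probes, with 2 probes for AZIN1 and 1 for each other gene. RNA from whole blood kept in RNAlater was measured in 13 red wolves (Canis rufus) and 1 coyote (Canis latrans, a free-ranging female), and the labelled RNA of each animal was put on 4 human bead arrays, 56 arrays on 7 slides in all. The series asked how confinement shows in blood and held captive and free-ranging wolves, but the labels used here do not give holding status, sex or age for each wolf, so the wolves were compared as individuals. On 1 array each, a note says that the blood of wolves 11136, 111080 and 11310 and of the coyote was taken in the wild. The other wolves carry no note either way, and no groups were made from it. The 4 arrays of an animal share its RNA and are technical, so the animal is the unit. A gene name is that of the human probe, and the match of each probe to the canid transcript was not examined.

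Polyamines are small, positively charged molecules that bind nucleic acids and are needed for growth and translation. Ornithine decarboxylase (ODC1) makes putrescine, AMD1 supplies the aminopropyl donor, and the synthases SRM and SMS build spermidine and spermine from them, while the acetyltransferase SAT1 starts the way back. Antizymes (OAZ1, OAZ2) bind ODC1 and hand it to the proteasome without ubiquitin, and a rise in polyamines raises antizyme synthesis through a ribosomal frameshift. Antizyme inhibitors (AZIN1, AZIN2) resemble ODC1 but have no decarboxylase activity, and by binding antizyme they release the enzyme. Much of this control acts on translation and protein stability, which RNA levels do not show.

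Each animal has 1 level per probe, a log2 intensity set against its array mean and adjusted for slide. The brightest of 37 measured genes of liver and skeletal muscle, tissues foreign to blood, stood at 0.396, which was taken as a bound for background. Over the 14 animals the mean level lay above this bound for 4 of the 9 probes, those of AZIN1 (both), OAZ1 and SMS. It lay below for ODC1, OAZ2, AMD1, SRM and SAT1. Levels of different probes are not ranked against each other, since each human probe may bind its canid target with a different strength. Red cell genes were the best seen of the blood markers, with 7 of 19 measured genes above the bound. For neutrophils it was 1 of 17 (NCF1), for monocytes 1 of 9 (TYROBP), for T cells 1 of 11 (LCK), for platelets 1 of 8 (PF4) and for B cells 0 of 6. Whole blood is a mixture, and a change in the share of a cell type cannot be told apart from a change of RNA per cell.

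**Figure D1:**
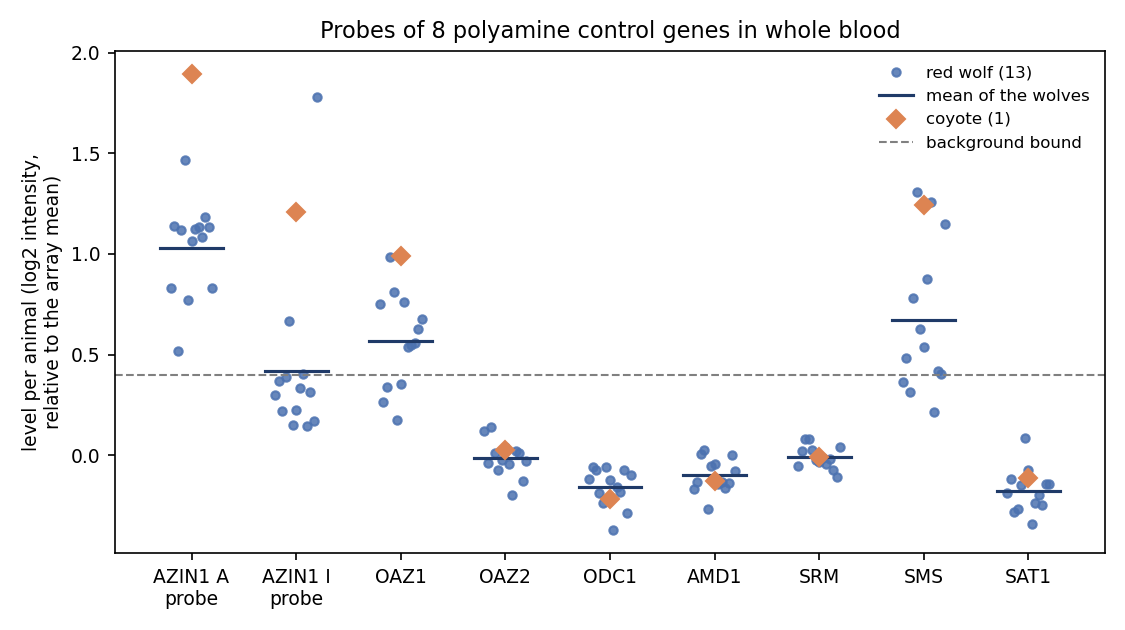
Level of each probe per animal (log2 intensity relative to the array mean, vertical axis) for the 13 wolves (circles), their mean (bar) and the coyote (diamond); the dashed line is the background bound of 0.396. ODC1, OAZ2, AMD1, SRM and SAT1 lie below the line in every animal, and 1 wolf stands far above the rest with the AZIN1 I probe.

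All 4 probes above the bound differed among the 13 wolves by more than their repeated arrays, and none of the 5 below it did (moderated F test of limma, slide being a model term, adjusted p under 0.05). Over all probes 11.2% passed, of the 2064 probes above the bound 78.1% and of those under it 5.02%, so a pass by these 4 is the common result for probes of that brightness. The AZIN1 I probe was above the bound (mean 0.48 over 14 animals) only with wolf 11310, since the other 13 animals averaged 0.38. Between-wolf variance as a share of the total was 0.84 for the AZIN1 I probe, 0.80 for SMS, 0.77 for the AZIN1 A probe and 0.23 for OAZ1. Its median was 0.234 over the 9 probes, 0.521 over probes above the bound and 0.0652 over all probes.

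AZIN1, the antizyme inhibitor, was read by 2 probes that gave different accounts of the same animals. Their identifiers end in I and in A, which in the maker's naming marks a probe for 1 transcript variant and a probe for all known variants of the human gene. Which canid transcripts each one binds was not examined. With the I probe wolf 11310 stood at 1.78, and its 4 arrays read 1.94, 2.33, 1.94 and 1.03 before slide adjustment. The next wolves were 111080 at 0.67 and 11270 at 0.40, while the median wolf was at 0.31 and the lowest, 11273, at 0.15. Wolf 11310 was thus 1.11 above the next wolf on the log2 scale, or 2.16-fold in intensity, and only 3 of the 13 wolves lay above the background bound. The other 10 lie at or under that bound, so the distance of wolf 11310 from them is a lower limit.

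On each of its 4 slides wolf 11310 exceeded every other wolf with the I probe, by 0.78 to 1.94 over their mean. The F test gave an adjusted p of 1.46e-16 for this probe, with an SD over wolves of 0.43 against 0.18 between arrays (n = 13 wolves). Without wolf 11310 the SD over the other 12 wolves was 0.15 and the adjusted p 0.00223. Of these 12 wolves 10 lay at or under the bound, so this p compares signal mostly not told from background.

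Some of the blood marker lists also set wolf 11310 at an end of the order. It was the lowest wolf for the mean of the red cell genes (0.45, median wolf 0.61) and of the neutrophil genes (-0.03, median 0.01), and the highest for the T cell genes (0.05, median -0.0032). For the monocyte, B cell and platelet means it was at neither end, but it was close to one for some. Its platelet mean was 0.155 (lowest wolf 0.139) and its monocyte mean -0.0064 (highest wolf -0.0054). The B cell mean was 0.0074 (lowest wolf -0.0274, median 0.0368). Only 1 of 17 neutrophil, 1 of 11 T cell, 1 of 9 monocyte, 1 of 8 platelet and 0 of 6 B cell genes lay above the bound. For red cells it was 7 of 19. Most genes in each of these means were thus not told from background. Over the 13 wolves the I probe had r = -0.52 with the red cell mean (permutation p = 0.0393, adjusted 0.22; rho = -0.35, permutation p = 0.248). With the neutrophil mean r was -0.53 (permutation p = 0.0364, adjusted 0.22; rho = -0.37, permutation p = 0.218). Without the 2 wolves farthest from the median of each marker mean these were -0.54 (permutation p = 0.0624) and -0.53 (permutation p = 0.0809). The part of cell makeup in the level of wolf 11310 was not tested.

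With the A probe the same wolf was not high. Wolf 11310 stood at 0.83, which was 0.22 below the mean of the other 12 wolves, 1.05. The highest wolf was 111080 at 1.47 (arrays at 1.35 to 1.58), followed by 11274 at 1.18, the median was 1.12, and the lowest wolves were 11136 at 0.77 and 10632 at 0.52. All 13 wolves lay above the bound. The SD over wolves was 0.24 against 0.12 between arrays (adjusted p = 2.32e-08), and the wolves spanned 1.93-fold. In the order of the levels, 9 of the 12 steps from a wolf to the next were no larger than the SD between arrays, so the middle of the order is not resolved; for the I probe this held for 10 of 12 steps.

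**Figure D2:**
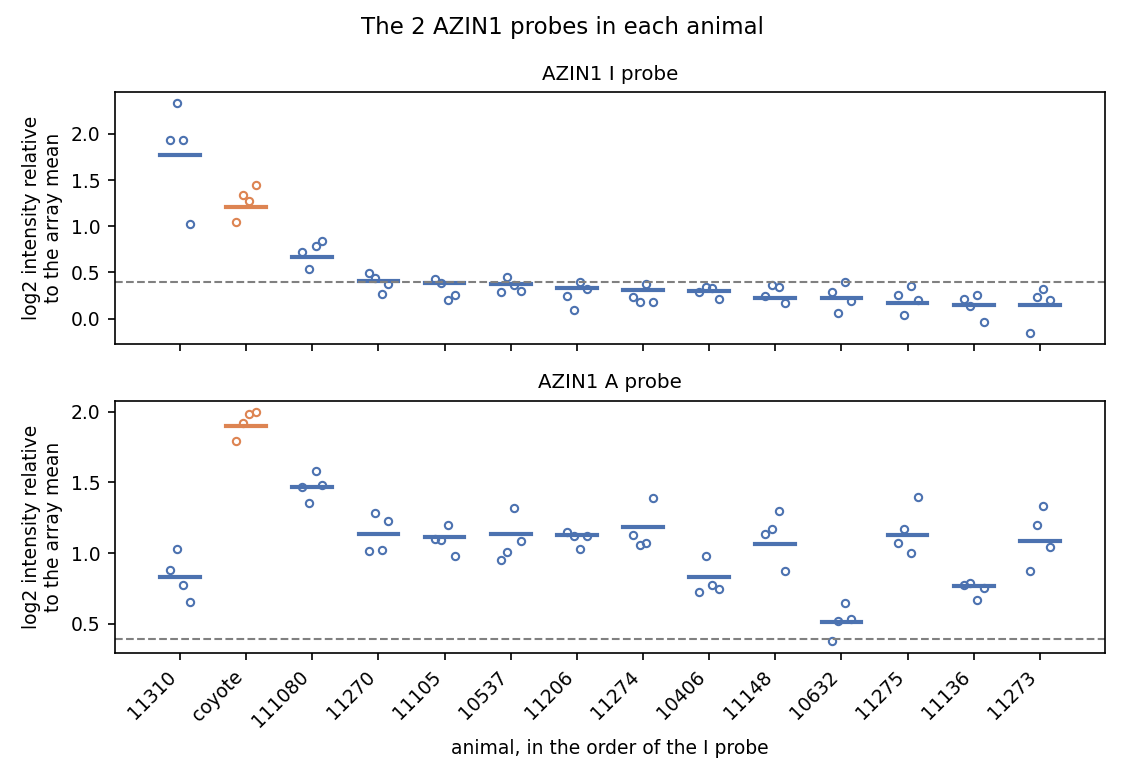
The 2 AZIN1 probes in each animal: open circles are the 4 arrays as deposited, bars the slide-adjusted level (log2 intensity relative to the array mean), with animals in the order of the I probe, the coyote in orange and the background bound dashed. Wolf 11310 leads the upper panel at 1.78 and lies at 0.83, among the lower wolves, in the lower panel, while the coyote is high in both.

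The difference between the probes, I minus A, was 0.95 in wolf 11310. The other 12 wolves had values from -0.96 to -0.30, with no overlap. It varied among the wolves by more than array noise (adjusted p = 2.24e-17 in limma, fitted with the differences of all 2975 pairs of probes of a gene). Without wolf 11310 the adjusted p was 0.0109, but with the I probe at or under the bound in 10 of those 12 wolves this does not show that the probes differ among them. Of all such pairs 14.5% varied, and of the 32 pairs with both probes above the bound 68.8%, so probes of a gene that part company among animals are frequent on these arrays. The SD of the difference was 0.50 for AZIN1, against a median of 0.301 over the 32 pairs, of which 6 had a larger one. AZIN1 is among these 32 pairs only through wolf 11310, since its I probe averaged 0.38, under the bound, over the other 13 animals. The same wolf lies outside the range of the others in this difference, so the place of AZIN1 among the 32 is a description only.

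Pearson r between the probes was -0.04 over the 13 wolves (permutation p = 0.900, and 0.900 when adjusted over 14 pairs). Spearman rho was 0.45 (permutation p = 0.125, adjusted 0.529). Of the 32 bright pairs, which hold AZIN1 only through wolf 11310, 8 had a lower r, and their median was 0.531. The value rests on wolf 11310: without it r was 0.64 (permutation p = 0.033, n = 12) and rho 0.66 (permutation p = 0.0241), chosen after its level was seen, with the I probe at or under the bound in 10 of the 12. With the wolves most distant from the median of the I probe (11310 and 111080) removed, r was 0.40 (permutation p = 0.226). With those most distant by the A probe (10632 and 111080) removed, it was -0.37 (permutation p = 0.272). Within the 7 slides r ran from -0.34 to 0.67 over 7 or 8 wolves.

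**Figure D3:**
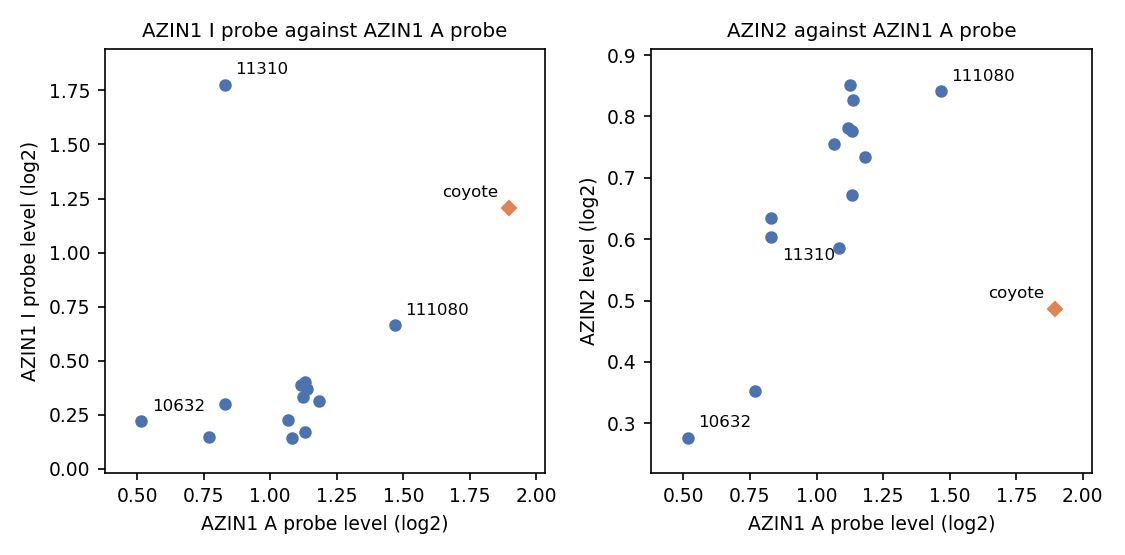
Left, the AZIN1 I probe against the AZIN1 A probe; right, AZIN2 against the AZIN1 A probe; each point is an animal (circles, wolves; diamond, coyote) and both axes are log2 levels relative to the array mean. Wolf 11310 stands apart from the other wolves on the left, 10 of which lie at or under the background bound with the I probe. The coyote stands apart from the wolves on the right.

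The genes most like each probe over the 13 wolves were taken from 1265 named genes that passed the F test above the bound. For the I probe they were CHCT1 (r = 0.96), the immediate-early transcription factors EGR1 (0.89) and FOS (0.88), PPP1R15A (0.86), which helps end the integrated stress response, and the autophagy gene ATG3 (0.83). Without wolf 11310 these were 0.56, 0.33, 0.52, 0.77 and 0.31, so the likeness leaned on that wolf, least for PPP1R15A. With the I probe at or under the bound in 10 of the 12 wolves left, these lower values relate to signal mostly not told from background. For the A probe the gene most alike was AZIN2, the other antizyme inhibitor gene (r = 0.86, and 0.88 without the highest wolf, 111080). It was followed by AP2M1 (0.83), an adaptor of clathrin coats, the kinase gene HIPK2 (0.81), PKM (0.80), of glycolysis, and the phosphatase gene PPM1B (0.80). No gene was among the 5 nearest of both AZIN1 probes, which their r of -0.04 with each other already required, so this is no further result.

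AZIN2 itself differed among the wolves (adjusted p = 5.96e-05), with an SD of 0.18 where arrays of an animal had 0.13. Its lowest levels were 0.28 (wolf 10632) and 0.35 (wolf 11136), the lowest 2 with the AZIN1 A probe as well. The median was 0.73 and the highest wolf 11206 at 0.85, and 11 of the 13 wolves lay above the bound.

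OAZ1, the main antizyme gene, was the member with the noisiest probe, with an SD of 0.31 between arrays against 0.24 over wolves. Wolves 11105, 111080 and 11206 led at 0.98, 0.81 and 0.76, with a median of 0.56. The place of wolf 11206 rests on 1 array, at 1.89, since its others read 0.05, 0.21 and 0.45; those of wolf 11105 read 0.81 to 1.01. The lowest wolves were 11136 at 0.18 and 10537 at 0.26, and 9 of the 13 lay above the bound. None of the 12 steps between neighbours in this order exceeded the SD between arrays, so the order of neighbours is not resolved. Which wolves differ from which was not tested. OAZ1 passed the F test (adjusted p = 0.0123), but the call ended without the slide term (adjusted p = 0.295) and with slide as a random block (0.149). It also ended without wolf 11105 (0.0589), without wolf 11136 (0.0693) and without the array numbered 3 of every animal (0.175). Its values differed between slides (adjusted p = 1.84e-06), as did those of 20.3% of all probes and 84% of those above the bound.

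OAZ2, a second antizyme gene, lay between -0.20 and 0.14 in all wolves and did not pass the F test (adjusted p = 0.336). Its SD over wolves was 0.09, against 0.13 between single arrays and an SE of 0.073 for a level. ODC1, the enzyme that antizyme controls, lay between -0.37 in wolf 11206 and -0.06 in wolf 10537 and did not pass (adjusted p = 0.303). Every animal lay below the background bound, and a p that misses the threshold does not show that these transcripts were level.

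SMS, the spermine synthase gene, had the largest SD of the synthesis genes, 0.37 over wolves against 0.17 between arrays (adjusted p = 1.52e-13). Wolves 111080, 11270 and 11310 stood at 1.31, 1.26 and 1.15, and the next, 11206, at 0.88. The median was 0.54 and the lowest wolves were 10632 at 0.31 and 11273 at 0.21, so the wolves spanned 2.13-fold. The gap of 0.27 between wolves 11310 and 11206 was the only step in the order larger than the SD between arrays. SMS values also differed between slides (adjusted p = 1.80e-07), and the call among wolves held at 1.61e-07 without the slide term.

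The genes most like SMS were TANK (r = 0.96), an adaptor of innate immune signalling, TBPL1 (0.95), a TBP-like transcription factor, CCNL1 (0.95), a cyclin tied to splicing, NAMPT (0.94), of NAD synthesis, and FLOT2 (0.93), a membrane raft protein. These held between 0.92 and 0.97 without the highest wolf, 111080. Those most like OAZ1 were HNRNPA0 (0.79), AP2S1 (0.75), CDC14B (0.74), RPL35A (0.73) and BBLN (0.71).

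AMD1, SRM and SAT1 lay below the bound in every animal. Their SDs over wolves were 0.08, 0.06 and 0.11, each smaller than the 0.14, 0.12 and 0.13 between arrays, and none passed (adjusted p = 0.512, 0.834 and 0.133). SAT1 ran from -0.34 in wolf 11206 to 0.09 in wolf 11136, whose arrays had the lowest 95th percentile (0.381). It passed when arrays were given equal spread by quantile normalization (adjusted p = 0.0463) or by division by their SD (0.0464).

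Among 14 pairs of genes named by the pathway, none had a correlation over the 13 wolves past the test (2 at an unadjusted permutation p under 0.05). The lowest adjusted p belonged to ODC1 with OAZ1 (r = -0.60, permutation p = 0.0297, adjusted p = 0.282; rho = -0.73, permutation p = 0.00672, adjusted p = 0.0941) and to OAZ1 with SAT1 (r = -0.57, permutation p = 0.0402, adjusted p = 0.282; rho = -0.45, permutation p = 0.125). Without wolves 11206 and 11275 the first r was -0.70 (permutation p = 0.0171), and within slides it ran from -0.68 to -0.16. Without wolves 11105 and 11136 the second was -0.24 (permutation p = 0.484), and within slides it ran from -0.85 to 0.45. ODC1 and SAT1 were below the background bound, so these are relations with signal not told from background.

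The 6 pairs among the bright probes are a family chosen after the levels were seen. It holds the AZIN1 I probe only through wolf 11310, since that probe averaged 0.38, under the bound, over the other 13 animals. The same wolf was 1 of the 3 wolves high for SMS, so the tests of the AZIN1 I probe with SMS are a description only. Their r was 0.60 (permutation p = 0.0134, adjusted 0.0805). Spearman rho was 0.79 (permutation p = 0.00212, adjusted 0.0127), but the I probe lay at or under the bound in 10 of the 13 wolves, so most of these ranks order signal not told from background. The adjusted p of r was under the threshold after quantile normalization (permutation, 0.0436), without the array numbered 4 of every animal (0.00402) and without wolf 11310 (0.0133). Without wolves 11310 and 111080 r was 0.63 (permutation p = 0.033). The range of r within slides was -0.47 to 0.88. Each slide held only some of the wolves, and not every slide held the wolves high for SMS. This range therefore cannot tell a change of the relation between slides from a change of the animals on them. Across all 13 wolves only wolf 11310 was far from the others with the I probe, whereas 3 wolves were high for SMS.

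Marker lists and the width of the array signal were set beside the 4 bright probes, 28 relations in all, and none passed the correction. The lowest p was that of the AZIN1 A probe with the 95th percentile of the animal's arrays (r = 0.66, permutation p = 0.0164, adjusted p = 0.22; rho = 0.58, permutation p = 0.0421), which ran from 0.381 in wolf 11136 to 0.866 in wolf 111080, and r was 0.62 (permutation p = 0.0384) without wolves 11136 and 10406. In the F test among wolves the adjusted p of the A probe was 2.32e-08 with the deposited values and 0.00047 after quantile normalization. The part of array width in the levels of the A probe was not tested. SMS had a negative r with the mean level of 19 red cell genes (r = -0.60, permutation p = 0.0334, adjusted p = 0.22; rho = -0.60, permutation p = 0.032). That list, with 7 of its 19 genes above the bound, ran from 0.454 in wolf 11310 to 0.819 in wolf 11105. Without wolves 11105 and 11273 r was -0.67 (permutation p = 0.0275). The part of red cell RNA in the SMS levels was not tested.

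Other genes of the pathway were taken from a list of 37, of which 34 were measured and 4 lay above the bound. Among the wolves 6 of the 34 differed (17.6%, against 11.2% of all probes), 3 of them above the bound. Their median share of variance was 0.0766, against 0.0652 over all probes. The largest differences were in MAT2A, which makes S-adenosylmethionine, the precursor of the AMD1 product. It stood at 4.02 in wolf 11206, 3.58 in wolf 111080 and 3.51 in wolf 11270, with a median of 2.50 and 1.53 in the lowest wolf, 10406. This is a 5.61-fold span, with an SD of 0.78 against 0.21 between arrays (adjusted p = 9.79e-25).

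PSMD4, a ubiquitin receptor of the proteasome, stood at -0.14 in wolf 11136, while the other 12 spanned 0.52 to 1.26 (adjusted p = 7.13e-14). AZIN2, described above, was the other bright gene that passed. Below the bound passed MAX, the partner of MYC (adjusted p = 0.00123), MAT2B, the regulatory subunit of the MAT2A enzyme (0.0108), and APIP, of methionine salvage (0.0490). The arginine transporter gene SLC7A1, the fourth gene above the bound, had an SD of 0.13 and did not pass (adjusted p = 0.0917). The other 27 genes did not pass either, among them SMOX, spermine oxidase (adjusted p = 0.0559).

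**Figure D4:**
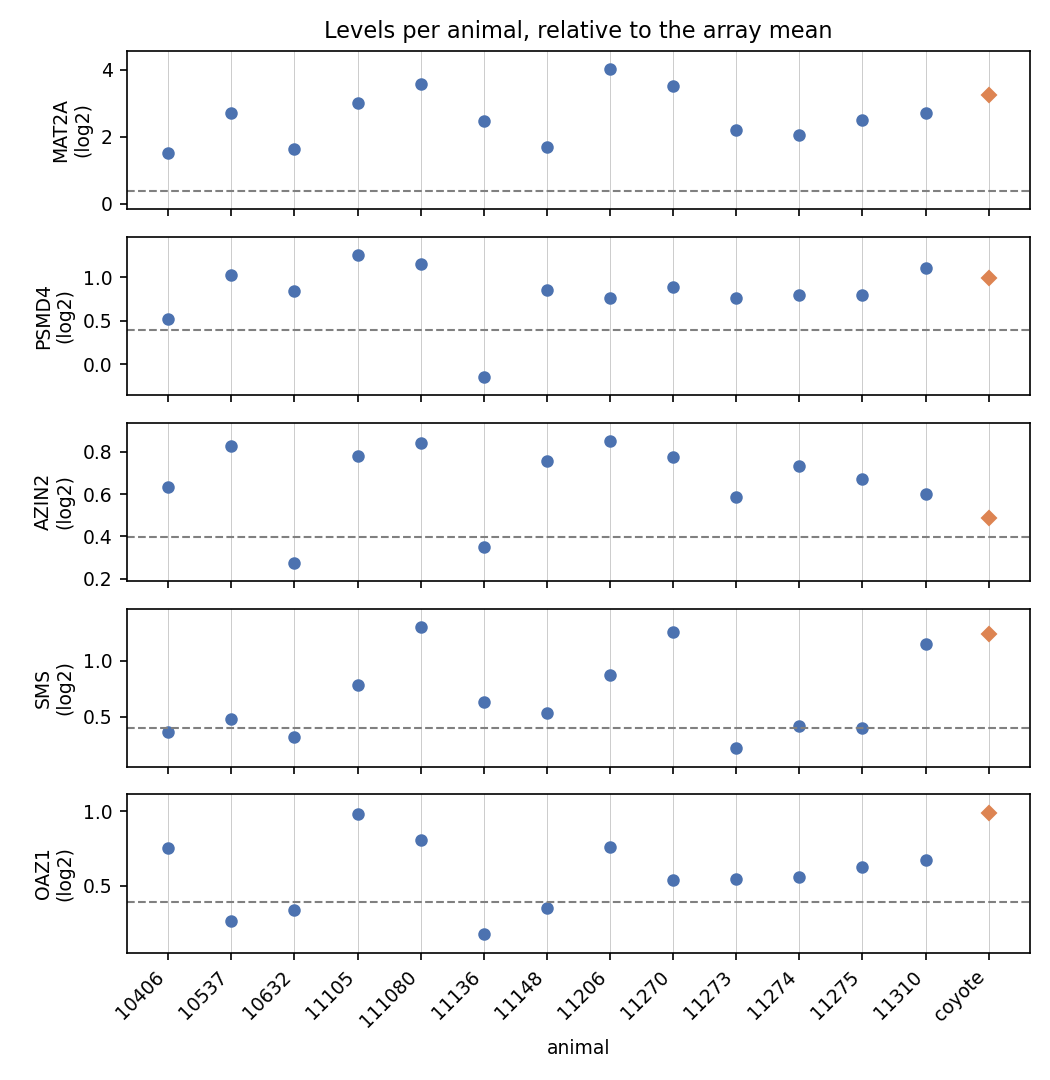
Levels per animal (log2 intensity relative to the array mean) of MAT2A, PSMD4, AZIN2, SMS and OAZ1 in the 13 wolves (circles) and the coyote (diamond), each panel with its own scale and the background bound dashed. PSMD4, AZIN2 and OAZ1 are below the line in wolf 11136, MAT2A and SMS are not, and AZIN2 is lower in the coyote than in 11 wolves.

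In the coyote, set against the wolves, no member passed limma's test of 1 level per animal (0 of 9, against 1 of 24354 probes, 0.00411%), while both AZIN1 probes had an unadjusted p under 0.05, as did 910 probes (3.74%). There is 1 coyote, so its spread was assumed to be that of the wolves, and differences between species and between individuals cannot be told apart. With the AZIN1 A probe the coyote stood at 1.90, above all 13 wolves (1.03 ± 0.24 SD, n = 13, highest 1.47). The difference was 0.87 (SE 0.26, 95% interval 0.33 to 1.40, adjusted p = 0.998), or 1.82-fold. Its 4 arrays read between 1.80 and 2.00. No wolf reached it on any of its 4 slides, where it lay 0.81 to 0.95 over their mean.

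With the AZIN1 I probe the coyote stood at 1.21, below wolf 11310 and above the other 12 wolves, with a difference from the wolves' mean of 0.79 (SE 0.31, 95% interval 0.15 to 1.43, adjusted p = 0.998). Without wolf 11310, left out after its level was seen, the difference was 0.93 with an adjusted p of 0.00814. The 12 wolves then averaged 0.31, under the bound, so their SD of 0.15 is mostly that of background signal and no call is taken from it. The adjusted p ran from 0.00814 to 1.00 over the settings tried. Since 10 of the 13 wolves lay at or under the bound, the 0.81 by which the coyote exceeded the bound is a lower limit of its distance from them. Slide by slide the coyote lay 0.44 to 1.11 over the wolf mean and was the highest animal on 1 of them, the slide without wolf 11310. On its other slides wolf 11310, which is part of the wolf mean there, was the only animal above the coyote. So the coyote was high with both probes, while wolf 11310 was high with 1 of them.

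**Figure D5:**
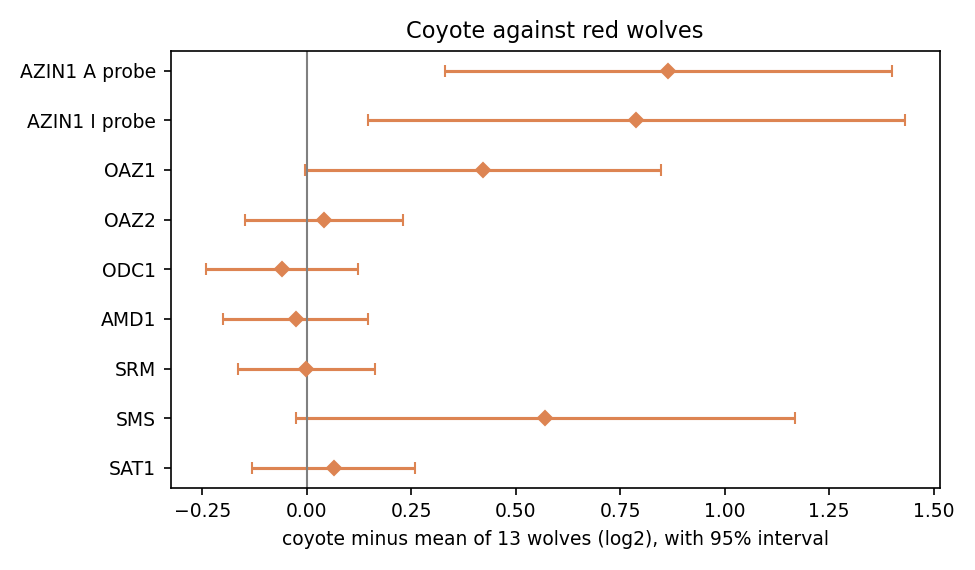
Coyote minus the mean of the 13 wolves for each probe (log2, horizontal axis), with the 95% interval of limma's fit, which assumes the coyote varies as the wolves do. The intervals of the AZIN1 probes lie above 0, those of OAZ1 and SMS reach just below it, and the 5 probes below the background bound lie between -0.06 and 0.06.

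OAZ1 stood at 0.99 in the coyote, level with the highest wolf at 0.98 (difference from the mean 0.42, SE 0.21, 95% interval -0.0044 to 0.85). Its arrays read 0.46, 1.09, 1.08 and 1.99, and without the array numbered 4 of every animal, the brightest in the coyote, the difference was 0.23. SMS stood at 1.24, behind wolves 111080 and 11270 (difference 0.57, SE 0.29, 95% interval -0.03 to 1.17). The coyote was above all wolves for 2 of the 9 probes, where 5.76% of all probes and 2.76% of those above the bound were. The 2 were the AZIN1 A probe and OAZ1, and for OAZ1 the excess was far smaller than the SE of a level, 0.16. The 5 probes below the bound lay within the range of the wolves, with differences between -0.06 and 0.06. Of the 34 other pathway genes none passed (0, and 0 at an unadjusted p under 0.05). For AZIN2 the coyote read 0.49 against 0.67 ± 0.18 (SD, n = 13) for wolves, inside their range, and for MAT2A 3.25 against 2.59 ± 0.78.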

How the data were processed

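Whole blood RNA of 13 red wolves and 1 coyote was hybridised to 56 Illumina bead arrays. BeadStudio 1.5.0.34 is the software named in the submitters' processing notes. Per the design text the authors took log2 of raw intensities and centred them by a median. In the deposited log2 values every array has a mean of 0 (largest absolute mean 3.24e-09) and a median between -0.167 and -0.0325. Whether background was subtracted is not given. Array 95th percentiles spanned 0.332 to 1.24, and the number of arrays limits precision.

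Gene symbols came from the platform annotation (1 symbol for 18339 probes, several for 0, none for 6015). R 4.3.3 and limma 3.58.1 fitted animal and slide over all probes, with an intensity trend and Benjamini-Hochberg adjustment at 0.05. Wolves were compared by a moderated F over animal terms (33 residual degrees of freedom). Fitted animal levels, slide-adjusted, were the values on which the coyote was compared with the wolves. The share of variance came from the mean squares as for 4 arrays an animal on complete slides, and is approximate. Correlations over wolves used 100000 permutations, two-sided, with each gene's brightest probe. The F test among wolves and the coyote comparison were tried on simulated data, the latter with a shift larger than any member difference here. The correlations and the test of probe differences were not simulated. Named were all member probes, pathway genes past a test or above the bound, and the 5 named genes most alike per member; SMOX was named after its value was seen. The members and lists were chosen with earlier results of these data known. Alternatives were the slide term, centring, spread, intensity trend, dim probes, position, arrays and wolves left out.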

Additional observations from a re-analysis of the deposited data

How the results depend on the processing

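In the F test among the wolves both AZIN1 probes and SMS passed under all 25 other settings, with adjusted p values of at most 0.00223. That value is the I probe without wolf 11310. There 10 of the 12 wolves lay at or under the bound, so no call is taken from it. The number of member probes called ran from 3 to 5. The difference of the AZIN1 probes passed the F test under each of 22 settings (adjusted p 4.30e-19 to 0.0109). The 0.0109 came without wolf 11310 and, for the same reason, does not show that the probes differ among the other wolves. All probes called among wolves were 1790 with dim probes left out, where fewer were tested, and 1629 to 2770 when an array or a wolf was left out. In the coyote comparison the probes called were 2 with 75th-percentile centring, 0 without an intensity trend, and 1 to 4 with a replicate left out; the member probes called were 0 or 1, and the 1, the AZIN1 I probe, came without wolf 11310, where the other wolves lie mostly under the bound. The difference of that probe was 0.70 to 0.93 over the left-out replicates. Of the pathway pairs 0 or 1 passed with a replicate left out, the 1 without the array numbered 1 of every animal. The r of the AZIN1 probes ran from -0.18 to 0.64 there, 0.64 being without wolf 11310, and was 0.00018 without the array numbered 2. The r of the AZIN1 A probe and OAZ1 was 0.42 and turned to -0.11 after quantile normalization; the cause was not tested. OAZ1 lost its call under 5 settings and SAT1 gained one under 2. Coyote differences with arrays divided by their SD are in SD units. The level of a probe under the bound is not told from background, although 1119 of 22290 such probes differed among wolves, and a p that misses the threshold there does not show a level transcript.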
